A study of Mus musculus with 6 samples.

Results

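The cytosolic ribosomal proteins are the structural proteins of the ribosome that makes protein in the cytoplasm. Their probes were chosen by name: a probe was a member if its single annotated gene symbol was Rpl or Rps followed by digits, or was Rplp0, Rplp1, Rplp2 or Rpsa. Kinases of the Rps6k family were left out. The rule found 70 probes for 68 genes, among 20289 probes and 13769 genes named by a single symbol on the array. They covered 40 probes of the large subunit, 22 of the small subunit, 3 of the stalk and 5 of paralogs that stand beside a standard subunit gene (Rpl3l, Rpl7l1, Rpl36al, Rpl39l and Rps27l). Rpl7l1 matches the rule by its symbol but is known as a ribosome biogenesis factor rather than a subunit.

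Transcripts were profiled in mouse urogenital ridges, from which gonad and mesonephros form, to compare wild-type embryos with embryos lacking Wt1, the zinc finger transcription factor of Wilms tumour. Both groups were of the Mf1 strain and at E11.5, with 11 to 12 tail somites. The wild-type group carried no mutation by its labels, and the knockout group was homozygous for a Wt1 deletion. Each genotype had 3 single-colour CodeLink arrays (WT_1 to WT_3 and KO_1 to KO_3), each labelled as RNA pooled from the ridges of 5 embryos, 4 female and 1 male. Whether the 3 arrays of one genotype held separate pools is not stated, and the p-values therefore reflect array-to-array spread that could be purely technical.

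A ribosome consists of a small subunit, which reads the messenger RNA, and a large subunit, which joins the amino acids. A stalk of the acidic proteins Rplp0, Rplp1 and Rplp2 on the large subunit recruits translation factors. Many vertebrate ribosomal protein transcripts begin with a 5′ terminal oligopyrimidine tract, a run of C and T through which their translation responds to growth signals, and their messages are among the most abundant of a growing cell.

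The stretch around the annotated start is shown for members on which the results below turn, because that tract lies there. RefSeq promoters of assembly GRCm38.p6 were matched by gene identifier for 57 of the 68 genes. The genes not matched were Rpl3, Rpl7, Rpl8, Rpl21, Rpl29, Rpl30, Rpl32, Rpl36, Rplp1, Rps14 and Rps20. Each line gives 14 bases before and 16 bases from the start, 5′ to 3′ on the gene's strand, and capitals mark an unbroken run of at least 5 C or T that covers the start. For a gene with several annotated starts, the start with the longest run is shown.
Rpl14 (chr9:120571503-120571532, plus strand): ggcgggCCCTCTCTCTTCTCgctgagcgcc
Rps24 (chr14:24490664-24490693, plus strand): ccgcgctggggTCCTTCCTTgcgcgttgat
Rpl27a (chr7:109519181-109519210, plus strand): acttcgtgagCTCCTCCCTTTTCCCTTTCT
Rps18 (chr17:33955650-33955679, minus strand): acgtcacttccgCTCTCTCTTCCacaggag
Rps27 (chr3:90213633-90213662, minus strand): tttccgctttcgCTCCTTTCCggcggtgac
Rpsa (chr9:120127752-120127781, plus strand): tgggttatttaaggacgtcatttccggccg
Rps7 (chr12:28635938-28635967, minus strand): cttccggtttccacccacctacttccgctg
Rps27l (chr9:66946072-66946101, plus strand): cactcctccccgccgcctctatcccggaag
The first 5 carry a run over the start and the last 3 do not. Such a run was present in 17 of the 57 member genes (29.8%) and in 11.8% of the 27025 genes with a promoter in the table. Where an annotated start lies a few bases away from the true one, a tract is missed by this count.

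Short motifs were searched on both strands in the whole promoter, 250 bases before to 50 bases after the start. CCGGAAGT, the core bound by Ets family factors such as GABP, occurred in 11 of the 57 member genes (19.3%) and in 4.31% of all genes. Rps18, Rpsa and Rps27l were among its carriers. AAGATGGC, the core of the YY1 motif, occurred in 5 (8.77%) against 3.19% of all genes. GGGCGG, the GC box, occurred in 35 (61.4%) against 38.2%, and TATAAA in 6 (10.5%) against 15.7%. These motifs do not contain one another, and a match is a description of the letters only.

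All values below are deposited spot intensities, which the authors gave on a linear scale with the median of each array near 1, at 0.956 to 0.966. Intensities of different probes depend on the probe and are not compared as abundances. Each array had a value for 20077 to 20099 probes, and the number of arrays limits the precision. Wt1 itself, measured first as a check of the labels, read 44.1, 43.6 and 39.1 in wild type and 14.3, 15.7 and 14.2 in the knockout. Its log2 change was -1.52 ± 0.08 (SE; limma adjusted p = 1.13e-07), and a second, dim probe changed by -1.74 (adjusted p = 0.00273). Where these probes lie relative to the deleted part is not stated, so the remaining signal cannot be read as intact transcript. The array KO_1 stood apart from KO_2 and KO_3 for the ribosomal proteins, as described below. The counts over all tested members are therefore given with and without it.

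Many ribosomal protein probes lacked a value on at least 1 array, and 7 had no value at all. Of the 70 member probes, 24 (34.3%) had an empty cell on at least 1 array, against 255 of all 20289 probes (1.26%). All 17 member probes empty on 1 to 5 arrays were bright, with a highest value above 400. Over the whole array, 19 of the 76 probes empty on 1 to 5 arrays reached that value, and 17 of the 19 were ribosomal proteins. The remaining pair were Rpf2, a ribosome assembly factor, and Actg1, cytoplasmic gamma actin. The authors' reason for leaving cells empty is not given in the sources used here, and whether the members' empty cells stand for signals too bright to record was not tested. A change fitted without an empty cell, as for Rps14 and Rps18 below, covers the remaining arrays only.

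Rpl5 and Rpl11, which bind Mdm2 together with the small RNA of the large subunit, were empty on every array, as were Rpl19, Rpl37a, Rpl41, Rps16 and the stalk base Rplp0. Rps19, a small-subunit protein mutated in Diamond-Blackfan anaemia, was empty on all 3 wild-type arrays and read 736, 813 and 807 in the knockout. Rpl7, a large-subunit protein, was likewise empty in wild type and read 653, 862 and 788. Both thus had values on the knockout arrays alone.

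Rpl15, Rpl23, Rpl35, Rps12 and Rps26 were empty on all wild-type arrays and on KO_1, and had values between 707 and 920 on KO_2 and KO_3. Rps6, the small-subunit protein phosphorylated by S6 kinase, had a single value, 980 on KO_2, and Rpl32 a single value of 968 on the same array. A second probe of Rpl27a had a single value of 619 on WT_1. The empty member cells numbered 17, 22 and 23 on WT_1 to WT_3 and 17, 8 and 11 on KO_1 to KO_3. KO_1 therefore had as many as WT_1, and KO_2 and KO_3 had the fewest.

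The highest value on the array moved with the genotype. It was 619, 558 and 558 on the wild-type arrays and 736, 980 and 908 on the knockout arrays. Where a member had values in both genotypes but was too incomplete to be tested, the knockout values were higher: Rplp2 of the stalk read 614 on WT_1 against 668, 691 and 673 in the knockout. Rpl10, a late-joining protein of the large subunit, read 566 on WT_1 against 621, 685 and 680. Rpl37 read 558 on WT_3 against 672, 720 and 857. Rpl36a read 601 on WT_1 against 957 and 883 on KO_2 and KO_3, and Rps23, of the decoding centre, read 555 on WT_1 against 947 on KO_2. No test was made on these 5 probes, and no fold is given against empty cells. What the empty wild-type cells would have read is not known, so the direction holds for the recorded values only.

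**Figure D1:**
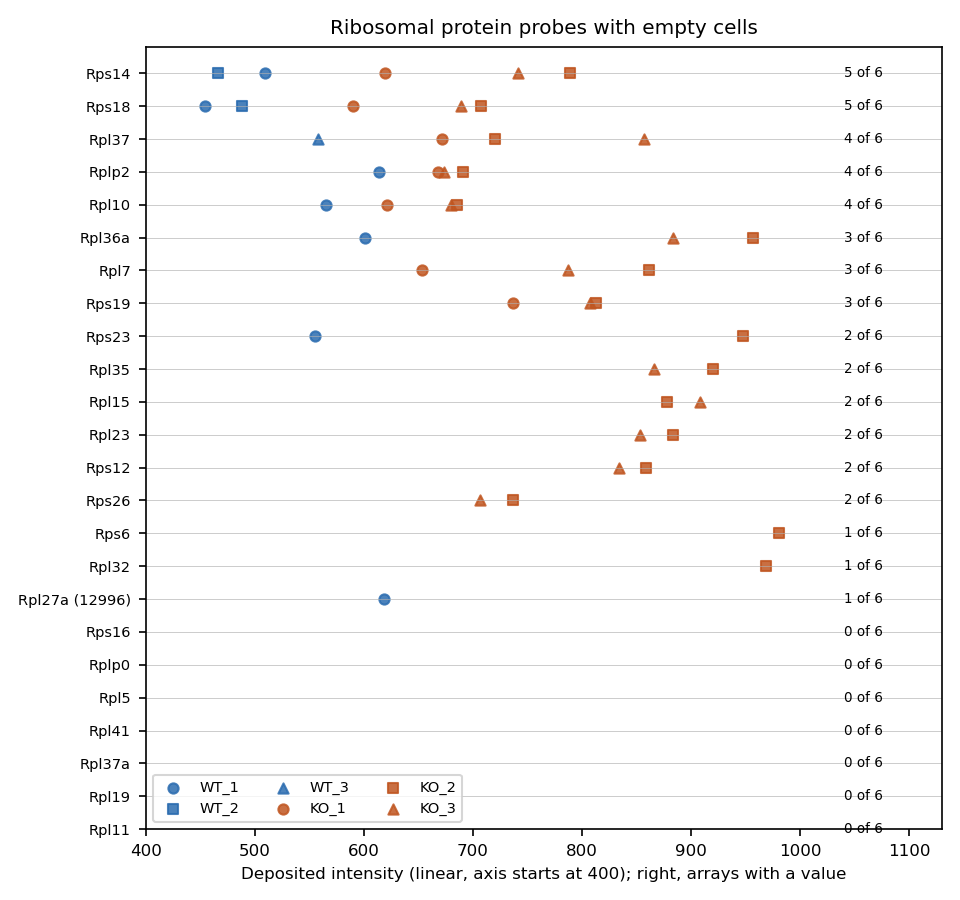
Deposited intensity (horizontal axis, linear, starting at 400) of the 24 ribosomal protein probes with an empty cell, one row per probe, with symbols for the 6 arrays and the number of arrays with a value at the right. No wild-type value exceeds 619, and 7 probes have no value on any array.

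In all, 23 member probes were not tested: the 7 without any value, 15 with values on fewer than 2 arrays of a genotype, and Rpl3l. Rpl3l, the paralog of Rpl3 known from heart and skeletal muscle, read 0.0764 to 0.241 on the 6 arrays, below the limit for dim probes. The 47 tested probes (46 genes) thus leave out most of the members with the highest readings. Of them, 43 lay in the brightest eighth of the tested probes, and 45 had values on all 6 arrays.

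On the deposited scale most tested ribosomal proteins read higher in the Wt1 knockout, and this direction turned when arrays were given a common distribution by quantile normalization. As deposited, 22 of 47 passed as higher (background 24.1% of all tested probes) and 3 as lower (background 17.2%), with 41.3% of all probes called in either direction. Their median log2 change was 0.22, against 0.09 over all tested probes. After quantile normalization 2 passed as higher (background 20.2%) and 15 as lower (background 19.6%), with a background of 39.8% in either direction, and the median was -0.17 against 0.03 over all probes.

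Members were not alone in this. Bright probes of every kind read higher in the knockout on the deposited scale: among the 1840 other probes of the brightest eighth, 54.9% passed as higher and the median was 0.26. After quantile normalization their median was 0.01. The members' median was thus close to that of other bright probes as deposited, and lay below it after quantile normalization. These other probes were not matched to the members in brightness. The eighth began at a mean intensity of 20.9, and of the 80 probes with a highest value above 400, 41 were members. Because the members' empty cells were on bright probes, quantile normalization was also run on the probes with values on all arrays, an alternative chosen after seeing the data. Of 45 tested members it gave 4 higher, 10 lower and a median of -0.07, beside 3122 higher and 2878 lower of all 15025 tested probes. Cyclic loess gave 2 higher, 16 lower and a median of -0.14, beside 2970 higher and 3028 lower of all tested probes.

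The share of the summed intensity, over probes with values on all arrays, that fell on the 45 complete tested members was 7.74%, 7.64% and 7.70% in wild type and 7.93%, 7.64% and 7.48% in the knockout. The groups overlapped on this measure. With all member cells that had a value, the share was 9.74%, 8.11% and 7.98% in wild type and 10%, 13.2% and 11.9% in the knockout, a sum that moves with the number of empty cells. RNA came from whole ridges, in which fewer cells of a type and less RNA per cell cannot be told apart.

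**Figure D2:**
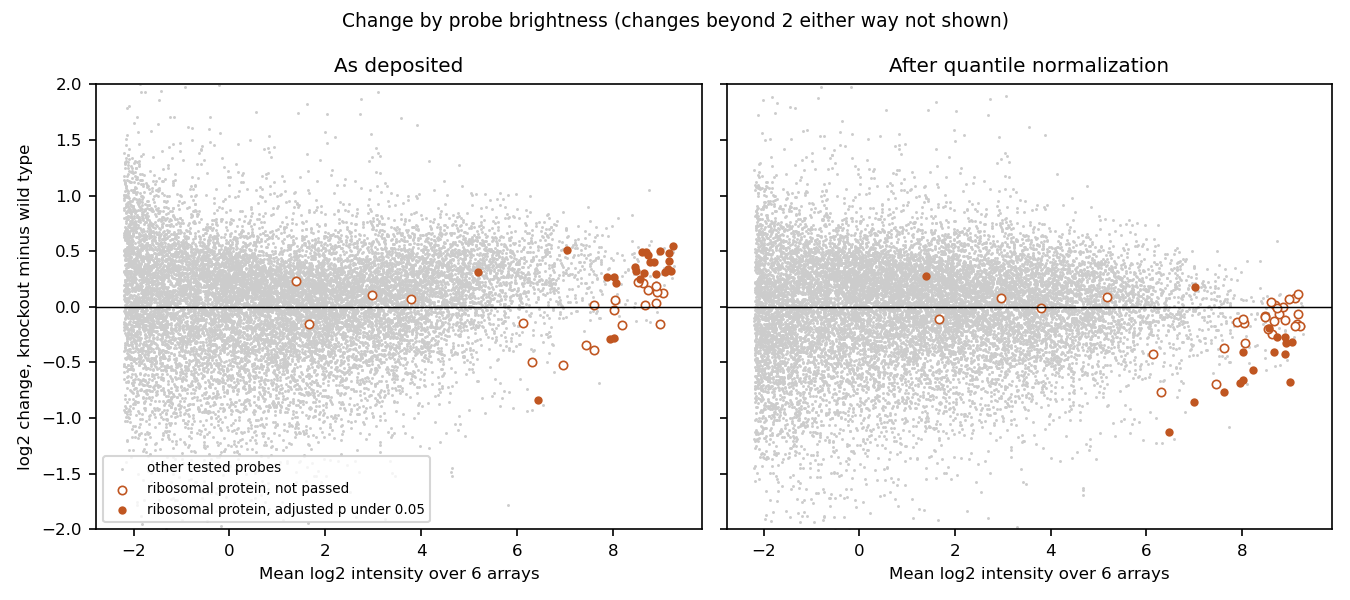
Log2 change of each tested probe (vertical axis) against its mean log2 intensity over the 6 arrays (horizontal axis), as deposited (left) and after quantile normalization (right), with ribosomal proteins in colour and filled where the adjusted p was under 0.05. As deposited 22 members pass as higher and 3 as lower, whereas after quantile normalization 2 pass as higher and 15 as lower.

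On the deposited scale the lowest knockout array exceeded the highest wild-type array for 27 of the 47 members (background 31.4% of all tested probes), and the reverse held for 5 (background 21.4%). The 2 genotypes overlapped for 15. The counts depended on single arrays. Without WT_1 the higher count was 13, and without KO_1 it was 25, while over all tested probes the higher count moved from 3625 to 2841 and 4243. The members' lower count was 1 without WT_2, WT_3 or KO_2, 0 without KO_3 and 10 without KO_1, and over all tested probes it moved from 2596 to between 1970 and 3074. Of the 22 members called higher, 14 passed with each array left out in turn, and of the 3 called lower none did.

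The large and the small subunit did not move as blocks. Of 26 tested large-subunit probes 13 were higher and 1 lower, with a median of 0.22, and after quantile normalization 0 were higher and 9 lower, with a median of -0.20. Of 16 small-subunit probes 7 were higher and 2 lower, with a median of 0.08, and after quantile normalization 0 were higher and 6 lower, with a median of -0.25. The backgrounds are those given above, 24.1% higher and 17.2% lower of all tested probes as deposited and 20.2% and 19.6% after quantile normalization. The difference between the subunits was not tested. Within each, single genes ranged widely, from -0.53 to 0.50 for the large and from -0.84 to 0.55 for the small subunit.

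In the small subunit the largest increase was that of Rps14, a platform protein known for its loss in the 5q- syndrome. It read 510 and 466 on WT_1 and WT_2, was empty on WT_3, and read 619, 789 and 741 in the knockout. The fit used 2 wild-type arrays and gave a log2 change of 0.55 ± 0.12 (SE; adjusted p = 0.00333), which was 0.11 (adjusted p = 0.254) after quantile normalization. Its groups did not overlap.

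Rps15, a protein of the subunit's head, read 317, 323 and 350 in wild type and 419, 518 and 461 in the knockout, a log2 change of 0.49 (adjusted p = 0.00125). Rps18, a neighbour of Rps15 in the head, read 455 and 488 on WT_1 and WT_2, was empty on WT_3, and read 590, 707 and 689 in the knockout (0.49, adjusted p = 0.00382, from 2 wild-type arrays). In both genes every knockout array lay above every wild-type array. After quantile normalization their changes were 0.04 and 0.08 and neither passed.

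Rps28, Rps27 and Rps2 formed the next group of increases, at 0.41, 0.41 and 0.40. Rps28 read 459 to 560 in wild type and 598 to 718 in the knockout. Rps27, a zinc finger protein of the small subunit, read 355 to 407 and 440 to 555. Rps2, near the entry of the messenger RNA channel, read 378 to 430 and 497 to 574. None of these ranges overlapped, and after quantile normalization the 3 changes were -0.06, -0.07 and -0.0021 and did not pass.

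In the large subunit Rpl36 had the largest increase, with 427, 434 and 416 in wild type and 582, 622 and 606 in the knockout. Mean intensity was 426 ± 9.10 in wild type and 603 ± 20.3 in the knockout (SD, n = 3). The log2 change was 0.50 (adjusted p = 0.000294), and 0.07 after quantile normalization. Both genotypes were tight and well separated on the deposited scale.

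Rpl22, a large-subunit protein that is dispensable for bulk translation and needed in T cell development, was measured by 2 probes. The brighter read 333, 364 and 352 in wild type and 413, 581 and 493 in the knockout (0.49, adjusted p = 0.00451). The dimmer read 31.3, 30.8 and 35.7 against 35.8, 43.8 and 41.7 (0.31, adjusted p = 0.0177). The probes gave the same direction, and after quantile normalization their changes were 0.02 and 0.09 and neither passed. The dimmer probe also lost its call when any one of WT_1, WT_2, KO_2 or KO_3 was left out (adjusted p = 0.0628 to 0.0835).

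Rpl29, a basic large-subunit protein, read 352, 365 and 377 in wild type and 471, 567 and 474 in the knockout (0.46, adjusted p = 0.00166). Its change was -0.01 after quantile normalization. The brightest tested large-subunit probes were those of Rpl6, Rpl10a and Rpl7a. Rpl6 changed by 0.32 (adjusted p = 0.00572) and Rpl10a, a protein of the mobile L1 stalk, by 0.34 (adjusted p = 0.00596), and after quantile normalization they stood at -0.17 and -0.16 and did not pass. Rpl7a read 490 to 527 in wild type and 525 to 571 in the knockout and changed by 0.12 (adjusted p = 0.232), and after quantile normalization by -0.32 (adjusted p = 0.00702).

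Rpl30 was the only member called in opposite directions by the 2 scales. It read 348, 349 and 350 in wild type and 391, 440 and 412 in the knockout. Its log2 change was 0.25 (adjusted p = 0.0246) as deposited and -0.19 (adjusted p = 0.0303) after quantile normalization. When only probes with values on all arrays were quantile normalized, the fall of Rpl30 was smaller (value in the closing section). On the deposited scale its call was lost when any array other than KO_1 was left out (adjusted p = 0.0580 to 0.0831). Of the other 21 members called higher as deposited, 20 did not pass after quantile normalization and 1, Rps27l, did.

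Rps27l, the paralog of Rps27 that is known as a target of p53, read 110, 112 and 109 in wild type and 141, 164 and 168 in the knockout. Mean intensity was 110 ± 1.61 in wild type and 158 ± 14.6 in the knockout (SD, n = 3), or 1.43-fold. The log2 change was 0.51 ± 0.08 (SE; adjusted p = 0.000416) as deposited and 0.18 (adjusted p = 0.0381) after quantile normalization. It was the one member that passed as higher under all 16 alternatives run for it, with changes of 0.18 to 0.59 and a highest adjusted p of 0.0381. Its partner Rps27 moved from 0.41 to -0.07 with the scale. Cdkn1a, another known target of p53, read 2.60 to 2.73 in wild type and 1.41 to 1.71 in the knockout (-0.76, adjusted p = 9.43e-05). A part of p53 in either change was not tested.

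The other paralog pairs gave smaller changes. Rpl39l, the paralog of the exit tunnel protein Rpl39 known from testis, was dim at 2.29, 2.44 and 2.58 against 2.781, 2.779 and 3.001 (0.23, adjusted p = 0.0535; after quantile normalization 0.28, adjusted p = 0.0245). Rpl39 itself read 434 to 463 and 509 to 511 (0.19, adjusted p = 0.0684; after quantile normalization -0.27, adjusted p = 0.0317). Rpl36al, the intronless relative of Rpl36a, read 205, 232 and 208 against 248, 255 and 276 (0.27, adjusted p = 0.0192), and -0.13 after quantile normalization. Its call was lost without WT_1, WT_3 or KO_3 (adjusted p = 0.0686 to 0.0925). Rpl7l1 read 7.29 to 7.82 and 7.21 to 8.94 (0.10, adjusted p = 0.374). Rpl7 and Rpl36a, the partners of Rpl7l1 and Rpl36al, were empty on at least 2 wild-type arrays. Whether probes of a paralog pair share signal was not tested.

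The 3 members called lower were called lower on both scales. Rpsa, the small-subunit protein also described as a laminin receptor, read 265, 283 and 273 in wild type and 245, 226 and 201 in the knockout. Its log2 change was -0.29 ± 0.09 (SE; adjusted p = 0.0172), and -0.69 (adjusted p = 0.000283) after quantile normalization. The genotypes did not overlap. Its call on the deposited scale was lost without WT_2, WT_3 or KO_3 (adjusted p = 0.0501 to 0.0888).

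Rpl27a, a large-subunit protein known from the sooty foot ataxia mouse, read 296, 295 and 270 in wild type and 255, 221 and 235 in the knockout. Its change was -0.28 (adjusted p = 0.0181), and -0.66 (adjusted p = 0.000311) after quantile normalization. Its call was lost without WT_1, WT_2, KO_2 or KO_3 (adjusted p = 0.0557 to 0.0800). The second Rpl27a probe, with its single value of 619 on WT_1, gave no comparison.

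Rps24, a small-subunit protein mutated in Diamond-Blackfan anaemia, had the largest decrease, and it rested on 2 of the 3 knockout arrays. It read 116, 118 and 116 in wild type, 112 on KO_1, and 48.6 and 51.3 on KO_2 and KO_3. Its change was -0.84 ± 0.24 (SE; adjusted p = 0.0141) over all arrays, and -0.62 (adjusted p = 0.0549) and -0.66 (adjusted p = 0.0550) without KO_2 or KO_3. Without KO_1 it was -1.23, a value given without a test because Rps24 is among the genes chosen below for their difference from KO_1. Without WT_3 it also missed the threshold, at an adjusted p of 0.0552. KO_1 thus lay just under the wild-type range and the other knockout arrays far below it.

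**Figure D3:**
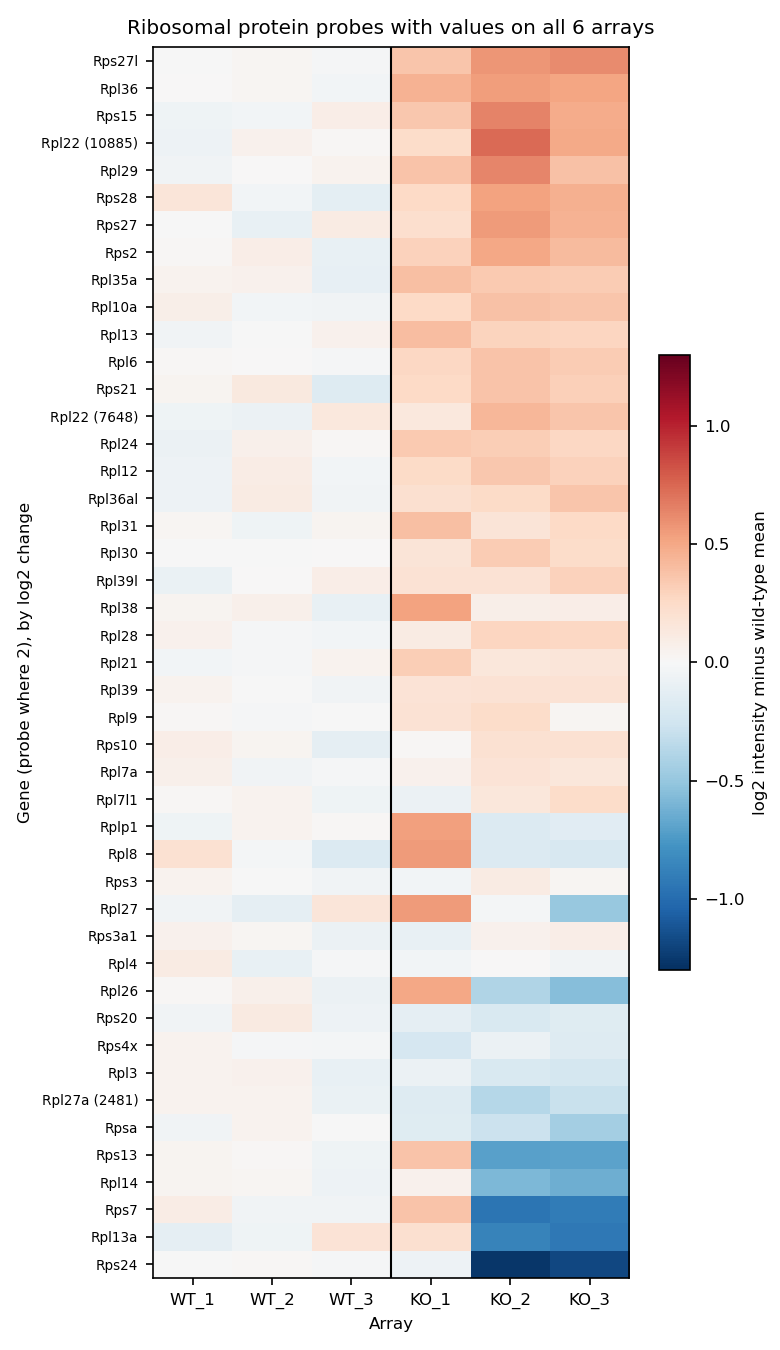
Log2 intensity minus the wild-type mean (colour) for the 45 tested ribosomal protein probes with values on all 6 arrays, as deposited, in rows ordered by log2 change, with one column per array. Most rows are redder in the knockout columns, and in the lowest rows KO_2 and KO_3 are blue while KO_1 is near or above the wild-type mean.

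The same division of the knockout arrays was found in other members. In 8 of the 45 complete members (17.8%) KO_1 was at least 1.5-fold above both KO_2 and KO_3: Rps7, Rps24, Rpl13a, Rps13, Rpl26, Rpl8, Rplp1 and Rpl14. The share was 3.27% over all tested probes and 1.36% (25 of 1838) over other probes of the brightest eighth. No member stood apart in this way on any other array, or below the others on any array. The pattern was noticed in these values, so the counts are a description without a test.

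Rps7, a small-subunit protein that binds Mdm2, read 101, 90.8 and 90.8 in wild type and 122, 48.6 and 50.1 in the knockout. Rpl13a, known for silencing inflammatory messages in the GAIT complex, read 138, 144 and 170 against 173, 82.6 and 79.0. Rps13 read 200, 197 and 188 against 251, 119 and 121. In these genes KO_1 was the highest array and KO_2 and KO_3 the lowest.

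Rpl26, which binds the p53 message, read 73.9, 76.6 and 69.4 against 103, 56.0 and 49.8. Rpl14 read 228, 227 and 212 against 230, 148 and 143. Rpl8, of the peptidyl transferase region, read 298, 256 and 229 against 380, 230 and 225, and the stalk protein Rplp1 read 12.98, 14.01 and 13.64 against 19.7, 12.0 and 12.3. For Rpl8, KO_2 lay within the wild-type range and KO_3 just below it.

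Over the 8, KO_2 and KO_3 together lay below the wild-type mean in all 8 (median log2 difference -0.65), and KO_1 lay above it in 7 of 8 (median 0.37). Across all 6 arrays only Rps24 of the 8 passed. Without KO_1 the log2 differences of Rps7, Rpl13a, Rps13, Rpl14, Rpl26, Rpl8 and Rplp1 from wild type were -0.93, -0.90, -0.70, -0.61, -0.47, -0.19 and -0.16, given as values without a test because these genes were chosen for their difference from KO_1. In the other 37 complete members the median difference from wild type was 0.21 on KO_1 and 0.27 on KO_2 and KO_3. Just inside the limit was Rpl14, on KO_1 1.58-fold over the mean of KO_2 and KO_3. Just outside were Rpl27, whose 288, 193 and 139 missed the limit against KO_2 alone, and Rpl38, 1.36-fold over that mean.

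Without KO_1, 25 of the 47 members were higher (background 28.2%) and 10 lower (background 20.4%), with 48.6% of all probes called and a member median of 0.20. The 10 were Rps24, Rps7, Rpl13a, Rps13, Rpl14, Rpl26, Rplp1, Rpsa, Rpl27a and Rpl3. All but Rpsa, Rpl27a and Rpl3 belong to the genes chosen by the division of the knockout arrays, so their calls here are a description only. With quantile normalization and without KO_1, an alternative chosen after seeing the data, 2 were higher (background 23.5%) and 27 lower (background 23.6%), with 47% of all probes called. Rps27l and Rpsa kept their directions in these settings.

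The spread of single members around the wild-type mean put numbers on the difference between arrays. Its SD over the 45 complete members was 0.0569 to 0.0787 on the wild-type arrays, 0.212 on KO_1, and 0.444 and 0.431 on KO_2 and KO_3 (log2). KO_2 and KO_3 differed from each other by an SD of 0.109, as close as the wild-type arrays among themselves (0.0943 to 0.133), whereas KO_1 differed from them by 0.448 and 0.447. Over all tested probes the SD of the differences was 0.416 between KO_2 and KO_3 and 0.456 and 0.451 between KO_1 and these. What sets KO_1 apart in the members was not tested.

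**Figure D4:**
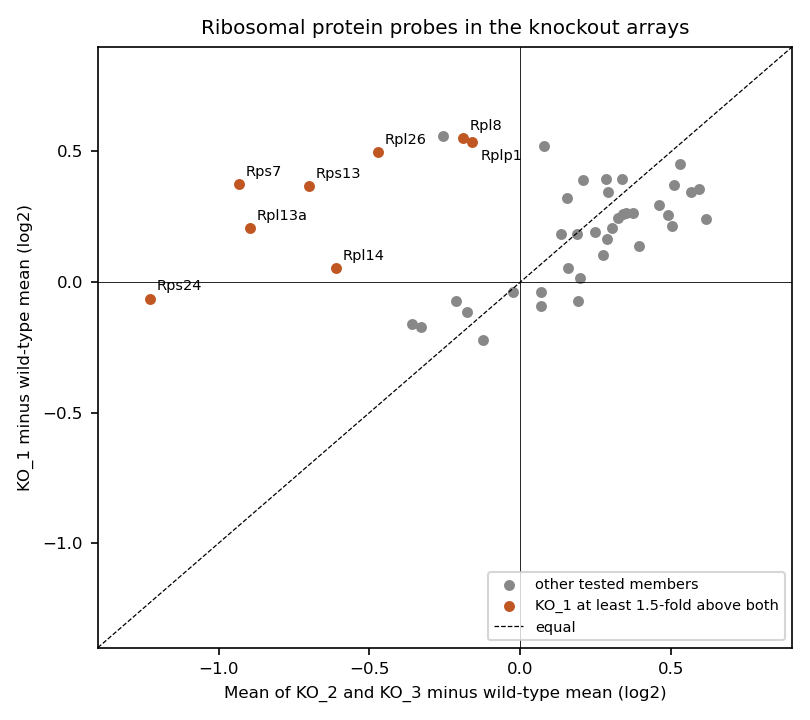
Difference from the wild-type mean on KO_1 (vertical axis, log2) against that of the mean of KO_2 and KO_3 (horizontal axis, log2) for the 45 complete tested members, as deposited, with the 8 probes that were at least 1.5-fold higher on KO_1 named and the dashed line marking equal values. The 8 lie above the line and left of 0, and most other members lie near the line.

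The remaining decreases were small on the deposited scale. Rpl3, which reaches the peptidyl transferase centre, read 322, 323 and 290 against 296, 271 and 266 (-0.17, adjusted p = 0.124). Rps4x, encoded on the X chromosome, read 552, 530 and 527 against 459, 507 and 477 (-0.16, adjusted p = 0.131). Rps20 was dim, at 3.18 to 3.60 against 2.91 to 3.08 (-0.16, adjusted p = 0.156). After quantile normalization Rpl3 and Rps4x passed as lower at -0.57 and -0.68, and Rps20 did not pass at -0.11. All knockout values of Rps4x and Rps20 lay below the wild-type values, and those of Rpl3 overlapped with them.

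Fau, whose product is cleaved to the small-subunit protein eS30 and which the symbol rule misses, read 178 to 185 in wild type and 181 to 187 in the knockout (0.02, adjusted p = 0.833). After quantile normalization it stood at -0.38 (adjusted p = 0.000597). Fau thus behaved as the 11 members that did not pass as deposited and passed as lower after quantile normalization.

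The run of C and T over the start was set beside the changes. Of the 13 tested member genes with a run, such as Rpl14, Rps24, Rpl27a, Rps18 and Rps27 shown above, 6 were higher and 2 lower, with a median of 0.22 and a range from -0.84 to 0.49. Of the 24 without one, 11 were higher and 1 lower, with a median of 0.19 and a range from -0.53 to 0.51. Of the 8 genes divided between knockout arrays 6 had a promoter entry, and 2 of these, Rpl14 and Rps24, had a run. Both directions thus occurred with and without a run, beside 24.1% higher and 17.2% lower over all tested probes.

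Calls among other genes of protein synthesis went both ways. The counts of this and the following lists stand beside the backgrounds over all tested probes. These were 24.1% higher and 17.2% lower as deposited, and 20.2% and 19.6% after quantile normalization. Of 46 tested translation factors 13 were higher and 15 lower, with a median of -0.11, and after quantile normalization 5 were higher and 19 lower. Eef2, the translocation factor, fell by 1.59 on the log2 scale (adjusted p = 8.81e-07), Eif3a, the largest subunit of the eIF3 complex, fell by 1.52 (adjusted p = 0.000503) and Eif4a2, a helicase, fell by 1.01 (adjusted p = 1.87e-06). Eif5 rose by 0.74 (adjusted p = 5.17e-05), the junction complex helicase Eif4a3 by 0.67 (adjusted p = 6.02e-05) and the exchange factor subunit Eif2b2 by 0.60 (adjusted p = 0.000149). All of these 6 also passed in the same direction after quantile normalization. Without KO_2 the list's median was 0.03. KO_1 stood at least 1.5-fold above KO_2 and KO_3 for 4 of the 46. This count stands beside 3.27% of all tested probes and 1.36% of other probes of the brightest eighth.

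Of 17 tested genes other than members that are known for a 5′ terminal oligopyrimidine tract, 5 were higher and 6 lower, with a median of 0.02, and after quantile normalization 0 were higher and 11 lower, with a median of -0.38. Eef1a1, which brings aminoacyl-tRNA to the ribosome, read 264, 259 and 278 in wild type and 149, 180 and 171 in the knockout (-0.68, adjusted p = 8.17e-05), and Eif3e changed by -0.71 (adjusted p = 5.66e-05). Eef1d, Eif3f and Eif4b changed by 0.54, 0.43 and 0.36 as deposited, and by 0.10, 0.04 and 0.04 after quantile normalization, where none passed. Eef2 belongs to this list as well. For 0 of the 17 did KO_1 stand at least 1.5-fold above KO_2 and KO_3.

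Ribosomal proteins of the mitochondrion, which are encoded by separate genes, numbered 68 tested, of which 26 were higher and 8 lower, with a median of 0.15. After quantile normalization 17 were higher and 14 lower, with a median of 0.02. Mrpl35, Mrpl50 and Mrpl20 rose by 0.77, 0.77 and 0.70, and Mrpl45 fell by 0.56. Mrps34 read 1.91, 1.61 and 1.72 in wild type and 1.64, 0.668 and 0.835 in the knockout (-0.84, adjusted p = 0.0190), and Mrps31 read 2.86, 3.14 and 3.21 against 2.92, 1.91 and 1.63 (-0.55, adjusted p = 0.0214). KO_1 was at or near the wild-type range in both, and in all it stood at least 1.5-fold above KO_2 and KO_3 for 7 of the 68. That count stands beside 3.27% of all tested probes.

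Of 52 tested genes of ribosome biogenesis 15 were higher and 8 lower, with a median of 0.01, and after quantile normalization 13 were higher and 15 lower. Nop58, a box C/D snoRNP core protein, fell by 1.23 (adjusted p = 1.28e-06), Mybbp1a by 1.17 (adjusted p = 7.82e-06) and Nle1 by 1.14 (adjusted p = 2.06e-05). Heatr1, needed for ribosomal RNA transcription, rose by 0.80 (adjusted p = 0.000143), Sbds, which releases eIF6 from the new large subunit, by 0.75 (adjusted p = 0.000105) and the RNA polymerase I subunit Polr1b by 0.64 (adjusted p = 0.00034). These 6 passed on both scales. KO_1 stood at least 1.5-fold above KO_2 and KO_3 for 1 of the 51 genes compared in this way.

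Of 19 tested growth regulators 2 were higher and 4 lower on both scales. The Myc antagonist Mxd4 and the Myc partner Max changed by -0.82 and -0.40 (Max at an adjusted p of 0.0838 after quantile normalization), and Mycl and Tsc1, a brake on mTOR, by 0.59 and 0.52. Without KO_1, 6 were higher (background 28.2%) and 3 lower (background 20.4%). Of 12 common reference genes 5 were higher and 5 lower. Actb read 313, 296 and 290 against 573, 649 and 640 (1.05, adjusted p = 2.97e-06) and Cfl1 39.2, 39.6 and 45.7 against 15.9, 13.6 and 14.9 (-1.48, adjusted p = 3.16e-07), so that neither offered a fixed point for scaling the members. Tfrc and Pgk1 rose by 0.46 and 0.38, and B2m and Gusb fell by 0.54 and 0.51.

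Markers of cell types differed between the genotypes, beside backgrounds of 24.1% higher and 17.2% lower over all tested probes as deposited. The labelled tissue was met by its markers: in wild type Lhx9, Emx2 and Nr5a1, transcription factors of the gonadal primordium, read 4.02 to 4.46, 5.73 to 6.59 and 2.67 to 2.89, and Gata4 read 2.26 to 2.33. Of 7 tested markers of gonad and coelomic epithelium, where Wt1 itself is counted, 5 were lower and 0 higher. Their summed intensity was 84.1 to 88.8 in wild type and 53.0 to 53.6 in the knockout. Wt1, the deleted gene, made up 39.1 to 44.1 of the wild-type sums and 14.2 to 15.7 of the knockout sums. Most of the fall in the sum was thus that of Wt1 itself. Of 6 neuronal markers 5 were higher, with sums of 19.5 to 20.4 and 44.0 to 45.8, and of 6 muscle markers 4 were higher and 1 lower (43.9 to 47.0 and 48.4 to 53.9). Of 10 proliferation genes 4 were higher and 2 lower (467 to 489 and 597 to 636). These sums weight the brightest probes most. Median log2 changes were -0.63 for gonad and coelomic epithelium, 1.41 for neuronal, 1.97 for muscle and 0.07 for proliferation markers.

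Of 4 mesonephric markers 2 were higher and 1 lower (15.2 to 16.2 and 20.6 to 23.9), of 4 endothelial markers 1 was higher and 3 lower (45.6 to 47.7 and 45.0 to 48.3), of 5 germ cell markers 2 were lower (43.4 to 44.6 and 38.6 to 41.7), of 4 liver markers 1 was higher and 1 lower (3.40 to 3.84 and 5.97 to 6.48), and of 4 erythroid genes 0 passed (1456 to 1500 and 1447 to 1553). The median log2 changes were 0.44 for mesonephric, -0.77 for endothelial, -0.07 for germ cell, -0.29 for liver and 0.03 for erythroid markers. In the mesonephric, muscle, endothelial, liver and erythroid lists 1 marker on the array was not tested. The part of these differences in the members' values was not tested. KO_1 stood at least 1.5-fold above KO_2 and KO_3 for 1 liver marker and for no tested gene of the other marker lists.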

How the data were processed

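Biotin-labelled total RNA was hybridised to CodeLink Mouse 20k arrays in a single colour, per the labels' protocols. The deposited values are linear spot intensities, in 1 column for each array. How the authors subtracted background, flagged spots and scaled arrays is not given in these sources.

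Values under the 5th percentile of positive intensities (0.0811) were set to it, and log2 was taken of the deposited intensities. Testing required values on at least 2 arrays per genotype and a mean log2 over the 25th percentile of all probe means (intensity 0.217), which left 15062 of 20289 probes. The genotype comparison used limma 3.58.1 under R 4.3.3 (lmFit, eBayes with an intensity trend, two-sided, Benjamini-Hochberg over all tested probes, called at an adjusted p under 0.05), with genotype as the only term. All adjusted p-values come from such fits. The fit was tested on simulated data.

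Probes were named by the platform annotation (15120 with 1 symbol, 38 with several, 5131 not listed). An update through RefSeq gene identifiers (GRCm38.p6) changed no member. Members and lists were chosen with earlier results of these data known, so they are no independent support for them. Members named are the 10 largest changes each way, the 3 brightest of each subunit, paralog pairs, those called oppositely by the 2 scales and the 2 dimmest tested. From other lists, up to 3 changes past the threshold in each direction are named. The genes divided between knockout arrays, and those with empty cells, were chosen after their values were seen. Alternatives were quantile and cyclic loess normalization, the floor, a pseudocount, the filter, the variance trend, a replicate block, 1 probe per gene and each array left out.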

Additional observations from a re-analysis of the deposited data

How the results depend on the processing

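Scale decided the members' direction. Under quantile normalization, cyclic loess, quantile normalization on complete probes and quantile normalization without KO_1 (the last pair chosen after seeing the data), members counted 2, 2, 4 and 2 higher and 15, 16, 10 and 27 lower, with medians of -0.17, -0.14, -0.072 and -0.23. All tested probes counted 3043, 2970, 3122 and 3533 higher and 2954, 3028, 2878 and 3545 lower. The medians under the same 4 settings were 0.030, 0.024, 0.037 and 0.033 for all probes, -0.17, -0.18, -0.17 and -0.28 for translation factors, 0.022, 0.022, 0.025 and 0.0082 for mitochondrial ribosomal proteins, -0.13, -0.13, -0.11 and -0.14 for biogenesis, and -0.38, -0.32, -0.28 and -0.41 for genes with a pyrimidine tract. Without the filter, 13 members were higher and 1 lower, beside 3469 and 2421 of all probes, whose median was 0.14. Without the variance trend 0 members were lower, beside 2259 of all tested probes. With only probes above the median, the translation factor median was -0.014. Leaving out 1 array gave 13 to 25 higher and 0 to 10 lower members, beside 2820 to 4243 and 1970 to 3074 of all tested probes. The medians were then 0.088 to 0.10 for all probes, and -0.13 to 0.025 for translation factors, positive without KO_2. The floor, the pseudocount, updated symbols and 1 probe per gene left member counts within 1.5 times.

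The replicate numbers did not pair the arrays: deviations of same-numbered arrays correlated at 0.00049, -0.02 and -0.0057. With the number as a block 20 members were higher and 6 lower, beside 3453 and 2566 of all tested probes.

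Of the 47 members, 35 were positive as deposited, 9 after quantile normalization and, of 45, 18 with quantile normalization on complete probes. Of the named members, those that changed sign and passed on at least 1 of the 2 sides follow; others changed sign without passing on either side. Under quantile normalization, Rpl10a stood at -0.16, Rpl29 at -0.011, Rpl30 at -0.19, Rpl36al at -0.13, Rpl39 at -0.27, Rpl6 at -0.17, Rpl7a at -0.32, Rps2 at -0.0021, Rps27 at -0.068 and Rps28 at -0.061. Under cyclic loess, Rpl10a stood at -0.12, Rpl30 at -0.17, Rpl36al at -0.10, Rpl39 at -0.25, Rpl6 at -0.14, Rpl7a at -0.32, Rps2 at -0.030, Rps27 at -0.022 and Rps28 at -0.042. With quantile normalization on complete probes, Rpl30 stood at -0.072, Rpl36al at -0.030 and Rpl6 at -0.0034. With quantile normalization without KO_1, Rpl10a stood at -0.21, Rpl29 at -0.057, Rpl30 at -0.20, Rpl36al at -0.15, Rpl39 at -0.37, Rpl6 at -0.25, Rpl7a at -0.37, Rps2 at -0.038, Rps27 at -0.053 and Rps28 at -0.072. In the same setting Rpl8 stood at -0.61, Rplp1 at -0.24, Rpl27 at -0.68 and Rpl38 at -0.42. The latter genes were named for KO_1 lying above KO_2 and KO_3. Their values without KO_1, here and below, are therefore a description without a test. Leaving out 1 array moved Rplp1 between -0.16 (without KO_1) and 0.20 (without KO_2), and, without a call on the turned side, Rpl27 between -0.26 and 0.27, Rpl8 between -0.19 and 0.19 and Rpl26 between -0.47 and 0.06. The causes were not tested. Of the 22 members called higher, 7 kept their sign under every alternative and 6 were called lower under at least 1, and all 3 called lower kept their sign. The absence of detection flags, the empty cells of bright members and 3 arrays a genotype limit all of these values.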
